A study of Mus musculus with 30 samples.

Results

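Solute carriers are the membrane proteins that move amino acids, metal ions, nucleosides, sugars, vitamins and inorganic ions across the plasma membrane and organelle membranes, and each is named Slc with a family number and a member number. The genes described here are those whose symbol has that form in the annotation of the 3 Affymetrix Murine Genome U74 version 2 chips, with the glucose transporters Slc2a1 and Slc2a3 left out. At least 1 probe set named 275 such genes alone, of 15964 genes named alone by a probe set, and these carriers had 465 probe sets. Of the 275 genes, 223 had a probe set over the 30th percentile of mean intensity of its chip and were tested, of 12941 genes tested. The other 52, among them the cystine exchanger gene Slc7a11, the neutral amino acid exchanger gene Slc7a8, the glutamate transporter gene Slc1a1 and the nucleoside transporter gene Slc28a3, lay below that filter and have no test.

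The cells were a 129-derived mouse embryonic stem (ES) cell line carrying a Sox1-GFP reporter, so that cells in which the neuroectoderm gene Sox1 is active can be sorted by fluorescence. Aggregates were grown in serum-free floating culture (SFEB), which drives ES cells toward neural tissue. The 10 samples were 3 undifferentiated ES samples sorted as E-cadherin-positive, day 1 aggregates with no sort marker given, day 2 aggregates sorted into E-cad+ and E-cad- cells, day 3 aggregates sorted into Sox1- and Sox1+ cells, and Sox1+ cells of day 4 and of day 5. Each differentiated group had 1 sample, and each sample was hybridised to 1 array of each chip, 30 arrays in all. All samples carried the same reporter and no other genetic change is given. No label says that the 3 ES samples came from separate cultures, so a p-value here weighs a difference against how much these samples vary, and that variation may be technical. The SFEB medium contained serum replacement, glutamine, pyruvate and nonessential amino acids, and the labels do not say for each sample whether fetal calf serum was added; a change of medium and the change of cell state cannot be told apart in a comparison with ES cells.

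Pluripotent stem cells divide fast and take up amino acids, nucleosides and one-carbon precursors at a high rate, and their carriers for these nutrients serve growth. Neural cells come to rely on carriers for ion balance, pH and calcium, for removing glutamate from the extracellular space and for loading transmitters into vesicles. Zinc and iron enter the cytosol through the Slc39 and Slc11 families, and leave it through the Slc30 family and Slc40a1. In sorted bulk samples, fewer cells of a type and less RNA per cell cannot be told apart.

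The deposited values are linear intensities, scaled so that the trimmed mean of every array lay between 500.1 and 500.3. Actin control probes at the 3' end over those at the 5' end, a measure of RNA integrity, gave a ratio of 1.70 in ES sample 3, 1.34 in day 5 cells, 1.33 in day 2 E-cad- cells and 0.939 to 1.15 in the other 7 samples; its part in the results was not tested. Of the marker genes, 14 of 15 tested pluripotency markers fell and 12 of 15 tested neural progenitor markers rose in Sox1+ cells. Of the neuron markers 3 of 10 rose, of those of surface ectoderm and trophectoderm 1 of 10 fell (Tfap2c), and no tested marker of endoderm (15), mesoderm (7), blood or endothelium (6) or fibroblasts (8) was called. The summed signal of the neuron markers was 8777 at day 3, 8202 at day 4 and 17186 at day 5, and 12672 in day 2 E-cad- cells, against 8048 to 8525 in the ES samples and 6418 to 7331 in the other 3. Day 5 cells also stood apart on the listed endoderm markers Foxa2 (1315, and 28.1 to 55.3 in the other 9 samples) and Foxa1 (269, and 32.9 to 99.8), which are also genes of the neural floor plate and are named after their values were seen; the summed endoderm signal was 8260 there and 10487 to 12106 in ES. The part of these markers in the carrier values was not tested. The day 2 and day 3 sorts cannot be checked on their sorted gene. Cdh1, which encodes E-cadherin, read 572 in E-cad+ and 565 in E-cad- cells, and Sox1 read 241 in Sox1- and 308 in Sox1+ cells.

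The main question the design puts is how neural cells differ from ES cells, and it was answered by the 3 Sox1+ samples (days 3, 4 and 5) against the 3 ES samples with limma on log2(intensity + 16), 1 probe set a gene. Among the 223 tested carriers 12 rose, 22 fell and 189 did not pass an adjusted p of 0.05. Over all genes tested 6.4% rose and 6.17% fell, against 5.38% and 9.87% of the carriers, so the carriers' total of 15.2% called was near the 12.6% of all genes. The median log2 difference was -0.07 over the carriers and -0.01 over all genes. The arrays of the 2 groups did not overlap for 87 carriers, 39.0% of those tested, while all genes gave 35.1%.

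The carriers that rose encode the sodium-calcium exchanger Slc8a1, the bicarbonate cotransporter Slc4a4, the zinc transporters Slc30a4 and Slc39a8, the insulin-responsive glucose transporter Slc2a4, the proton-coupled folate transporter Slc46a1, the amino acid transporter Slc36a4, the mitochondrial carriers Slc25a23 and Slc25a10, the monocarboxylate transporter family member Slc16a4, and the organic ion transporter family members Slc22a23 and Slc22a17. Those that fell include the nucleoside transporter genes Slc28a1 and Slc29a1, the amino acid transporter genes Slc7a7, Slc3a2, Slc38a4 and Slc43a2, and the metal transporter genes Slc39a14 and Slc30a2. The Sox1+ mean of 6 of the 12 that rose, the higher of their means, was still below the median intensity of the chip. The ES mean was below it in 8 of the 12. The filter used the mean over all 10 samples, so a carrier dim in ES cells could enter the test through its Sox1+ signal. How many did so was not counted, and the same holds for all genes.

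**Figure D1:**
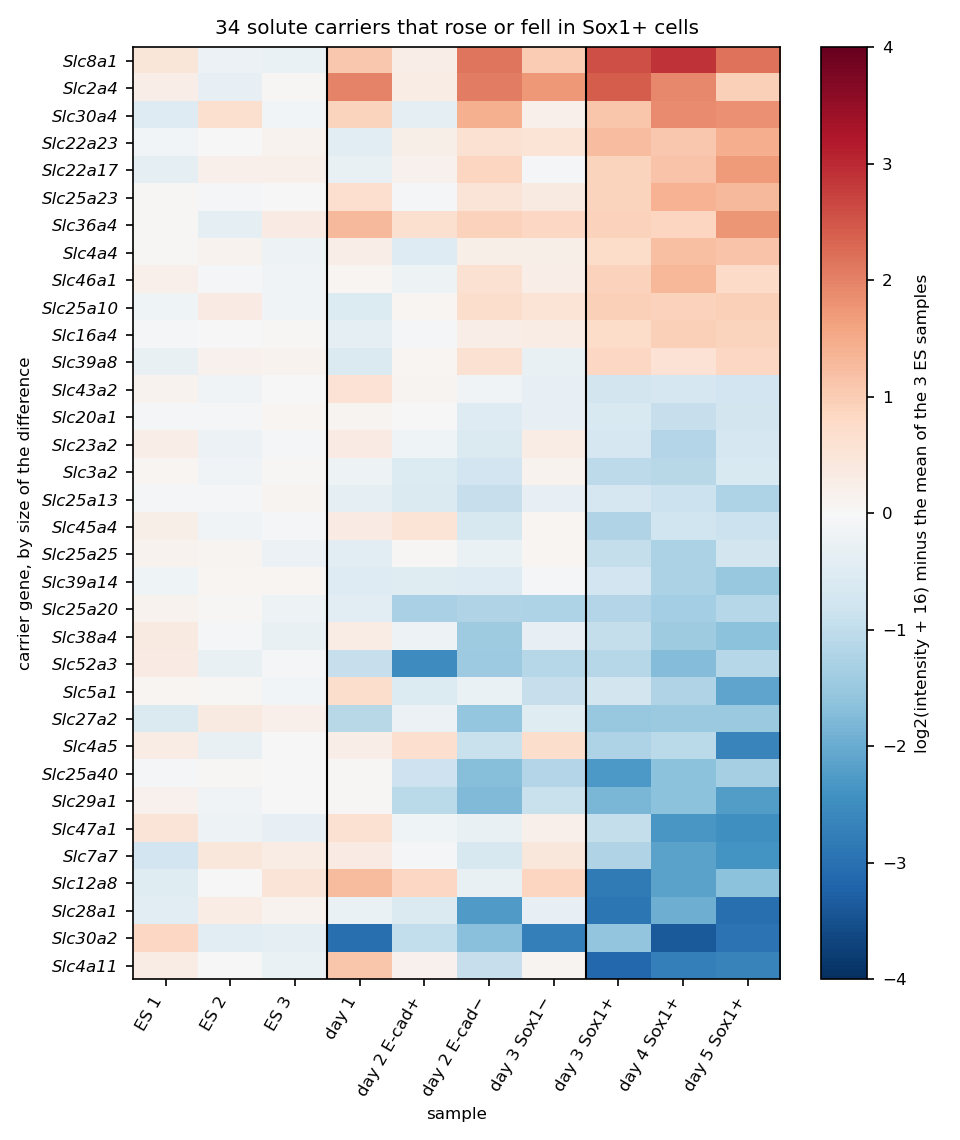
Heat map of the 34 solute carriers that rose or fell, 1 row a gene and 1 column a sample; colour gives log2(intensity + 16) minus the mean of the 3 ES samples, from -4 (blue) to 4 (red), and black lines part the ES, the intermediate and the Sox1+ samples. Slc4a11 is at its reddest at day 1 (1567) and at its bluest in Sox1+ cells (67.5 to 99.3), and Slc25a20 is blue from day 2 on, at 487 to 558.

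The nucleoside transporters had the lowest class median, -0.31 over 5 tested genes, of which 2 fell and none rose (40% called, all genes 12.6%). Slc28a1, a sodium-coupled concentrative transporter of pyrimidine nucleosides, read 2970, 4893 and 4381 in the ES samples, 3336 at day 1, 2697 in day 2 E-cad+ cells, 809 in day 2 E-cad- cells, 3172 in day 3 Sox1- cells, and 525, 1010 and 480 in Sox1+ cells of days 3, 4 and 5. The ES and Sox1+ groups did not overlap, and the E-cad+ and Sox1- cells stayed near the ES samples. The means were 4081 ± 996 in ES and 672 ± 294 in Sox1+ cells (SD, n = 3 each), a log2 difference of -2.62 (SE 0.37, adjusted p = 0.00679); leaving out ES sample 3 and day 5 together, the ones with the highest actin ratios in their groups, ended that call (adjusted p = 0.0664). Slc29a1, the equilibrative nucleoside transporter ENT1, read 2991, 2420 and 2656 in ES, 2798 at day 1, 1273 and 770 in E-cad+ and E-cad- cells of day 2, 1431 in day 3 Sox1- cells, and 740, 842 and 563 in the Sox1+ samples. It was already under the ES range in all 3 of the day 2 and day 3 sorted samples outside the Sox1+ gate. Its log2 difference was -1.90 (SE 0.20, adjusted p = 0.00156), a 3.76-fold lower mean. The other tested probe set of Slc29a1 differed by -0.365 and did not pass (adjusted p = 0.246). That probe set read 167 in E-cad+ and 157 in Sox1- cells, under its ES range of 176.5 to 220.2, but 237 in E-cad- cells.

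Of the other nucleoside transporters, the lysosomal Slc29a3 differed by -0.31 (adjusted p = 0.409) and Slc29a2 (ENT2) by 0.13 (adjusted p = 0.879) on the log2 scale. Slc29a4, a transporter of monoamines and adenosine, read 60.1, 306 and 527 in ES and 1014, 677 and 739 in Sox1+ cells. Those groups did not overlap, but the wide ES spread left its log2 difference of 1.78 at an adjusted p of 0.163. Among 19 tested genes of nucleoside salvage and metabolism none rose and 1 fell (5.26% called, all genes 12.6%), Upp1, which encodes the uridine-cleaving enzyme uridine phosphorylase. Upp1 read 6046, 4558 and 4320 in ES and 827, 850 and 487 in Sox1+ cells, a log2 difference of -2.79 (adjusted p = 0.000957), with 2035 in day 2 E-cad- cells against 7219 in E-cad+ cells.

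The 250 bases before the transcription start of both nucleoside transporters that fell are shown because both genes fell in Sox1+ cells, with GC boxes (GGGCGG or its complement), the motif bound by Sp1 family factors, in capitals. Sequences are RefSeq's, build GRCm38.p6, 5′ to 3′ on the gene's strand. The Slc28a1 window, chr7:81114549-81114798 on the plus strand, is its single listed start. The Slc29a1 window, chr17:45595531-45595780 on the minus strand, is 1 of 8 listed starts, chosen as the one with the most GC boxes.
Slc28a1: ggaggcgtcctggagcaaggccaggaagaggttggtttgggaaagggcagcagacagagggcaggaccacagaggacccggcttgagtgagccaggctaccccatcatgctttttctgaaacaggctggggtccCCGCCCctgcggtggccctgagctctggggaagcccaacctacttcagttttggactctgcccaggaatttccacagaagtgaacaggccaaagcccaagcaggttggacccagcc
Slc29a1: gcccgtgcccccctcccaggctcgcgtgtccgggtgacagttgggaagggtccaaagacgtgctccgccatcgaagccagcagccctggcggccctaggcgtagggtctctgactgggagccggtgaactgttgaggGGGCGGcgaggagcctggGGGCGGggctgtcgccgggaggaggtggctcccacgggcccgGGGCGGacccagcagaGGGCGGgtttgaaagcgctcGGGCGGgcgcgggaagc
The Slc28a1 window held 1 GC box and 4 CG dinucleotides, while that of Slc29a1 held 5 GC boxes and 24 CG dinucleotides; the median over all promoter windows was 6 CG. A GC box on either strand was found in 32.7% of all 32851 windows and in 57.4% of the 237 windows of tested carriers. All windows include those of untested genes, so these 2 shares are not of like sets. A GC box was in 57.1% of the windows of carriers that rose and 59.5% of those that fell. A gene with more listed starts has more windows. Counted by gene, at least 1 window held a GC box in 9555 of 27025 genes and 117 of 173 tested carriers. By the same count it was 7 of 11 that rose and 14 of 17 that fell. Promoter entries matched 173 of the 223 tested carriers and 28 of the 34 called.

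Amino acid carriers made up 35 of the tested genes, of which 1 rose and 4 fell (14.3% called, all genes 12.6%). Their median log2 difference was 0.11, with 20 higher and 15 lower in Sox1+ than in ES cells. Slc7a7, which with Slc3a2 forms the exchanger y+LAT1 of cationic and neutral amino acids, read 918, 2175 and 1932 in ES, 1972 at day 1, 1520 and 1004 in E-cad+ and E-cad- cells, 2167 in day 3 Sox1- cells, and 672, 343 and 284 in Sox1+ cells. All 3 Sox1+ values lay under the lowest ES value, and the Sox1- cells of the same day lay within the ES range (log2 difference -1.92, SE 0.40, adjusted p = 0.0216). The call ended without ES sample 2, ES sample 3, day 4 or day 5, with an adjusted p of 0.0579 to 0.0901. Slc3a2, the heavy chain 4F2hc shared by the Slc7 exchangers, read 4983, 4274 and 4798 in ES and 2256, 2163 and 3057 in Sox1+ cells, with 5116 in day 3 Sox1- cells. On the log2 scale it fell by 0.92 (SE 0.20, adjusted p = 0.0225); its other tested probe set differed by -0.75 with an adjusted p of 0.405.

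Slc38a4, a sodium-coupled transporter of small neutral amino acids, fell by 1.33 on the log2 scale (adjusted p = 0.0142), from 3010, 2197 and 1904 to 1198, 864 and 741, and a second probe set fell by 1.05 (adjusted p = 0.0140). The large neutral amino acid transporter gene Slc43a2, named after its values were seen because it was called, fell by 0.72 (adjusted p = 0.0406). The other tested probe sets of Slc43a2 differed by -0.317 and -0.335 and did not pass. The carrier that rose was Slc36a4, a high-affinity transporter of proline and tryptophan, at 64.7, 45.7 and 81.7 in ES and 134, 126 and 254 in Sox1+ cells (log2 difference 1.19, adjusted p = 0.0449). It was above the ES range in every differentiated sample, from 107 in E-cad+ cells to 254 at day 5. The call of Slc36a4 ended in 12 of the 15 alternative settings that gave it a value and that of Slc3a2 in 7 of 16, among them leaving out any 1 of the ES samples; their highest adjusted p was 0.153 and 0.132. That of Slc43a2 ended without any 1 of the 6 samples (adjusted p 0.0918 to 0.104). The call of Slc38a4 ended without ES sample 2 (adjusted p = 0.0544) or day 4 (0.0583).

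Of the amino acid carriers named whatever their values, Slc7a5, Slc1a5 and Slc7a1 had lower values in all Sox1+ samples but did not pass. Slc7a5 (LAT1), the exchanger of large neutral amino acids, averaged 3009 ± 667 in ES and 1900 ± 196 in Sox1+ cells (n = 3 each; adjusted p = 0.0928). Slc1a5 (ASCT2), a glutamine and neutral amino acid exchanger, averaged 10478 ± 2937 and 6021 ± 1224 (adjusted p = 0.175), and Slc7a1 (CAT-1), an arginine and lysine transporter, 480 ± 111 and 305 ± 27.6 (adjusted p = 0.129). Day 2 and day 3 cells outside the Sox1+ gate ranged from 2329 to 3219 for Slc7a5 and from 8517 to 9330 for Slc1a5. Slc7a1 read 467 in E-cad+ cells but 315 in E-cad- and 324 in Sox1- cells, within the Sox1+ range of 276 to 331. Other amino acid carriers went the other way and did not pass either. Slc38a1, named after its values were seen, read 1149, 1638 and 1726 in ES and 1905, 1889 and 1976 in Sox1+ cells (adjusted p = 0.334). Slc7a6 differed by 0.39 on the log2 scale (adjusted p = 0.394).

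The glial-type glutamate transporters were higher in Sox1+ cells but did not pass. Slc1a3 (GLAST) read 186, 188 and 61.9 in ES, 242 and 193 at days 3 and 4, and 599 at day 5, a log2 difference of 1.12 (adjusted p = 0.216). Slc1a2 (GLT-1) read 221, 246 and 386 in ES and 507, 491 and 724 in Sox1+ cells (log2 difference 0.99, adjusted p = 0.0544), while day 2 E-cad- cells, the sample whose neuron marker sum was 12672, stood alone at 1909. Its second tested probe set differed by -0.01 and did not show that high value. It read 120 in E-cad- and 100 in E-cad+ cells, 151 at day 1 and 30.1 to 135 in ES. Of 5 tested genes of glutamate and GABA handling none rose and 1 fell (20% called, all genes 12.6%). It was Glud1 (glutamate dehydrogenase), from 965 ± 53.8 to 522 ± 49.9 (log2 difference -0.87, adjusted p = 0.0158).

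Genes of the amino acid response, which ATF4 switches on when amino acids run short, were read beside these carriers. Of 26 tested, 2 rose (Aldh18a1 and Herpud1) and 5 fell (Trib3, Asns, Cth, Cbs and Eif4ebp1), 26.9% called against 12.6% of all genes. Their median log2 difference was -0.05. Cth and Cbs, the enzymes that make cysteine from homocysteine, fell by 1.72 (adjusted p = 0.0258) and 1.59 (adjusted p = 0.00738). Aldh18a1, of proline synthesis, rose by 1.02 (adjusted p = 0.0208), and Herpud1, of endoplasmic reticulum protein degradation, by 1.10 (adjusted p = 0.0183). The core of the amino acid response element, TGATGNAAN on either strand, was in 3.44% of all promoter windows, those of untested genes included. It was in 2.53% of the 237 windows of tested carriers, which belong to 5 of the 173 tested carriers with an entry. Slc7a7 was the called carrier that held it, in 2 of the windows of its 5 listed starts. The window below is shown for that match: chr14:54417703-54417952, GRCm38.p6, minus strand, with the element (TGATGCAAC, its first base 243 bases before the start) and 1 GC box in capitals.
Slc7a7: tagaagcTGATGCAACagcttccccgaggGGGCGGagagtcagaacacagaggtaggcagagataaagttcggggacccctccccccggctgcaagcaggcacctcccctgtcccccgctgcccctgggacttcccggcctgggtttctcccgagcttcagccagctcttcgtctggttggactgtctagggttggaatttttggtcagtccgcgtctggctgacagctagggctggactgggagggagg

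Inorganic ion carriers numbered 32 tested genes, with 2 that rose and 4 that fell (18.8% called, all genes 12.6%). They held both the largest rise and the largest fall of all carriers. Slc8a1, the sodium-calcium exchanger NCX1 of excitable cells, read 46.2, 22.0 and 21.0 in ES, 78.0 at day 1, 37.8 and 180 in E-cad+ and E-cad- cells of day 2, 74.7 and 249 in Sox1- and Sox1+ cells of day 3, and 317 and 185 at days 4 and 5. The high samples were the E-cad- and the Sox1+ ones, and no ES value came near them. The log2 difference between Sox1+ and ES was 2.55 (SE 0.27, adjusted p = 0.00156); since the ES signal lay far below the chip's median of 190.5, its size depends on the pseudocount. Slc4a4 (NBCe1), an electrogenic sodium bicarbonate cotransporter that regulates pH in brain and kidney, read 286, 313 and 243 in ES and 479, 660 and 637 in Sox1+ cells. Its log2 difference was 1.03 (SE 0.21, adjusted p = 0.0201), and a second probe set rose by 0.81 (adjusted p = 0.0391). Day 1 at 338, the E-cad- cells at 334 and the Sox1- cells at 329 lay a little over the ES range. The call ended without ES sample 2, ES sample 3, day 4 or day 5 (adjusted p 0.0572 to 0.0799).

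The promoter window of Slc8a1, the largest rise, chr17:81738388-81738637 on the minus strand (GRCm38.p6, its single listed start), held no GC box, no TGATGNAAN and 8 CG dinucleotides. It is shown for comparison with the windows of the nucleoside transporters above.
Slc8a1: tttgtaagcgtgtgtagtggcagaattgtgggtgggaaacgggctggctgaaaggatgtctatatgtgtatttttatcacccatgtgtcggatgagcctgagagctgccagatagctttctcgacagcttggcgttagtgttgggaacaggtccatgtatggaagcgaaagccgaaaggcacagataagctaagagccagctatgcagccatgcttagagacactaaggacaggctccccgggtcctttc

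Slc4a11, a borate transporter-related protein that passes water and protons or hydroxide, read 882, 712 and 598 in ES, 1567 at day 1, 814 and 377 in E-cad+ and E-cad- cells, 780 in Sox1- cells, and 67.5, 93.8 and 99.3 in Sox1+ cells. The Sox1+ values were low on all 3 days, the Sox1- cells of day 3 were at the ES level, and day 1 was the highest sample. The log2 difference was -2.86 (SE 0.23, adjusted p = 0.000536), an 8.41-fold lower mean. Slc12a8, a cation-chloride cotransporter family member, was also highest at day 1 and lowest in Sox1+ cells: 470, 659 and 970 in ES, 1633 at day 1, 1212 and 540 at day 2, 1231 in Sox1- cells, and 79.6, 140 and 205 in Sox1+ cells (log2 difference -2.20, adjusted p = 0.0183). The other tested probe set of Slc12a8 differed by -0.73 and did not pass (adjusted p = 0.312). It read 96.4 to 217 in ES, 128, 41.9 and 104 in Sox1+ cells, and was highest, at 263, in Sox1- cells. Slc4a5 (NBCe2) fell by 1.64 (adjusted p = 0.0366), from 131, 79.9 and 102 to 34.2, 40.4 and 3.15, the last far under the others. Slc20a1, a sodium phosphate cotransporter named because it was called, fell by 0.76 (adjusted p = 0.0275). The call of Slc12a8 ended without ES sample 2, ES sample 3 or day 4 (adjusted p 0.0544 to 0.0650), that of Slc4a5 without any 1 ES sample (0.0863 to 0.0957), and that of Slc20a1 without any 1 sample but day 3 (0.0510 to 0.106).

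The chloride cotransporters that set the response to GABA in neurons did not pass. Slc12a2 (NKCC1), which loads chloride, averaged 1418 ± 156 in ES and 970 ± 205 in Sox1+ cells (n = 3 each, adjusted p = 0.133), with 2035 in E-cad+ and 916 in E-cad- cells of day 2 and 1966 in Sox1- cells of day 3. Slc12a5 (KCC2), which exports chloride in mature neurons and is named here after its values were seen, read 330, 276 and 425 in ES and 435, 674 and 909 in Sox1+ cells (adjusted p = 0.160). Among 16 tested ion pumping ATPases none passed in either direction (all genes 12.6% called).

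**Figure D2:**
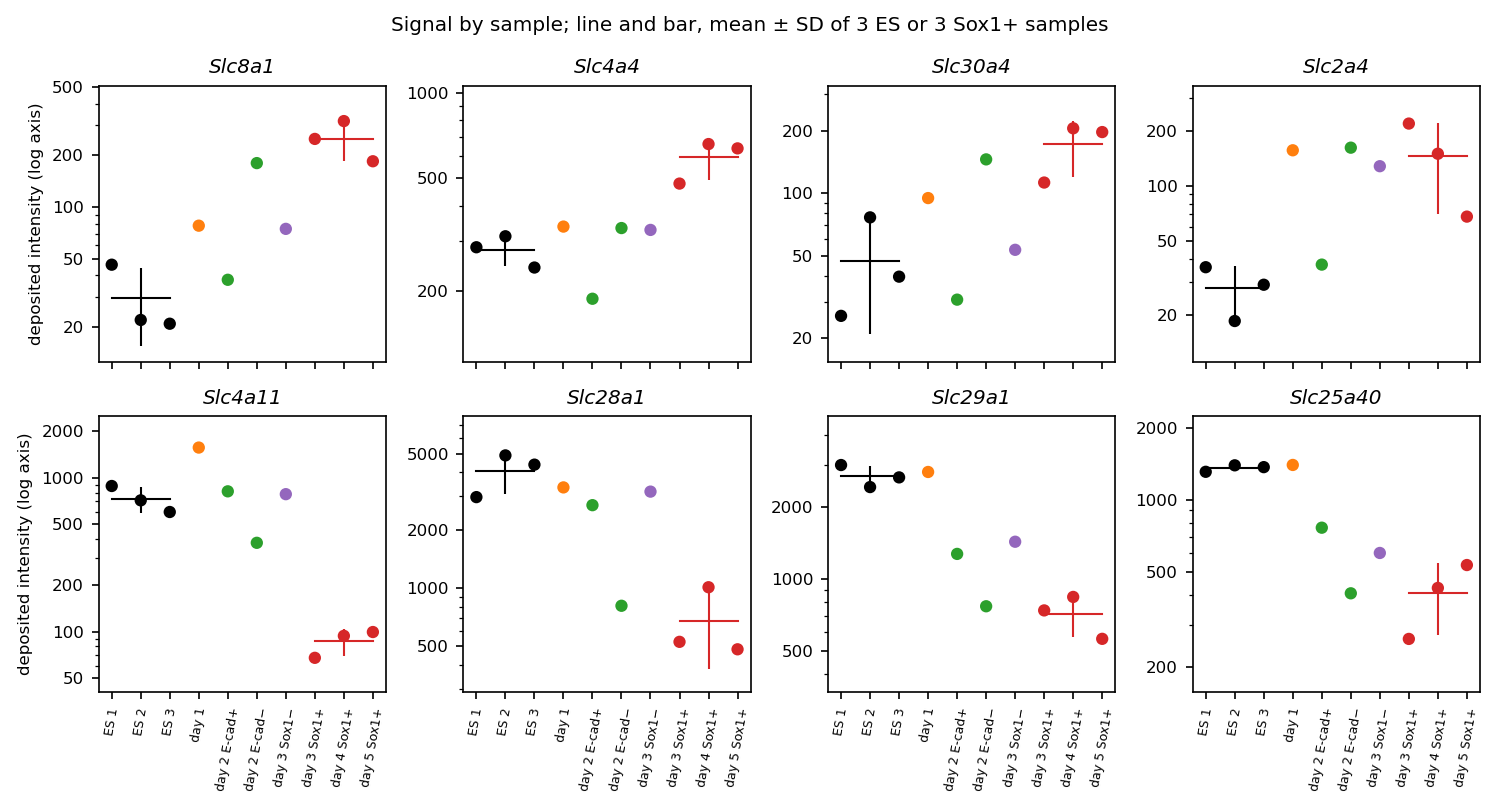
Deposited intensity (log axis) of 8 carriers in each of the 10 samples, with lines and bars for the mean ± SD of the 3 ES (black) and 3 Sox1+ (red) samples; orange is day 1, green day 2 and purple day 3 Sox1-. Slc8a1, Slc4a4, Slc30a4 and Slc2a4 (top) rose and Slc4a11, Slc28a1, Slc29a1 and Slc25a40 (bottom) fell; Slc4a11 reads 1567 at day 1 and 67.5 to 99.3 in Sox1+ cells.

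Of 25 tested metal carriers 2 rose, 2 fell and 21 did not pass, 16% called against 12.6% of all genes, with a median log2 difference of 0.17. In the Slc39 family of importers, Slc39a14 (ZIP14), a carrier of zinc, iron and manganese, fell from 2266, 2693 and 2680 in ES to 1490, 1037 and 872 in Sox1+ cells (log2 difference -1.19, SE 0.24, adjusted p = 0.0196), while its 2 other tested probe sets differed by -0.25 and -0.22 and did not pass. Its call ended without ES sample 2, ES sample 3, day 4 or day 5 (adjusted p 0.0520 to 0.0786) and with the mean over probe sets (0.166). Slc39a8 (ZIP8), a close relative with the same substrates, rose from 48.3, 72.1 and 69.9 to 124, 102 and 124 (log2 difference 0.75, adjusted p = 0.0455). Its call ended in 13 of 15 alternatives, among them leaving out any 1 of the 6 samples, with an adjusted p of up to 0.166.

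In the Slc30 family of zinc exporters, Slc30a4 (ZnT4) rose and Slc30a2 (ZnT2) fell. Slc30a4 read 25.6, 76.4 and 39.5 in ES, 94.7 at day 1, 30.6 and 146 in E-cad+ and E-cad- cells, 53.3 in Sox1- cells, and 112, 206 and 197 in Sox1+ cells (log2 difference 1.61, SE 0.33, adjusted p = 0.0206). Leaving out ES sample 1, ES sample 3, day 4 or day 5 ended that call, with an adjusted p of 0.0502 to 0.0791. Slc30a2 read 946, 393 and 396 in ES, 51.2 at day 1, 261 and 155 at day 2, 65.9 in Sox1- cells, and 167, 36.9 and 54.1 in Sox1+ cells. All 7 differentiated samples were under the ES range, the Sox1- cells and the day 1 aggregates included. The log2 difference was -2.63 (SE 0.56, adjusted p = 0.0278), and the call ended in 7 of 15 alternatives, among them leaving out any 1 of the ES samples, day 4 or day 5 (adjusted p up to 0.125).

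Slc11a2 and Slc40a1, through which iron enters and leaves the cytosol, did not pass. Slc11a2 (DMT1), the proton-coupled importer of ferrous iron, differed by -0.11 (adjusted p = 0.808). Slc40a1 (ferroportin), the iron exporter, read 452, 638 and 425 in ES, 899 in day 3 Sox1- cells, and 320, 335 and 314 in Sox1+ cells, groups that did not overlap (log2 difference -0.60, adjusted p = 0.122). Of 17 other tested genes of metal handling none rose and 2 fell (11.8% called, all genes 12.6%): Steap3, a ferrireductase, by 1.59 (adjusted p = 0.0181), and Ncoa4, the receptor for ferritin breakdown, by 1.09 (adjusted p = 0.00997).

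Mitochondrial carriers of the Slc25 family numbered 36 tested genes, of which 2 rose and 4 fell (16.7% called, all genes 12.6%), with a median log2 difference of -0.17. Slc25a40, which takes glutathione into mitochondria, read 1306, 1390 and 1366 in ES, 1395 at day 1, 762 and 405 in E-cad+ and E-cad- cells, 598 in Sox1- cells, and 261, 427 and 532 in Sox1+ cells (log2 difference -1.75, SE 0.27, adjusted p = 0.00678). Slc25a20, the carnitine-acylcarnitine translocase of fatty acid oxidation, read 1406, 1294 and 1107 in ES, 914 at day 1, 510 and 541 at day 2, 526 in Sox1- cells, and 548, 487 and 558 in Sox1+ cells (log2 difference -1.23, SE 0.18, adjusted p = 0.00489). From day 2 on all 6 samples of Slc25a20 lay between 487 and 558, whichever way the cells were sorted. The ATP-magnesium carrier gene Slc25a25 and the aspartate-glutamate carrier gene Slc25a13, named because they were called, fell by 0.98 and 0.92 (adjusted p = 0.0279 and 0.0299), and the other tested probe set of Slc25a25 differed by 0.02. The other tested probe sets of Slc25a13 differed by -1.26 and -0.38 and did not pass (adjusted p = 0.062 and 0.663). Without any 1 ES sample, day 4 or day 5 the call of Slc25a13 ended (adjusted p 0.0600 to 0.0890), and that of Slc25a25 ended without ES sample 1, ES sample 2, day 3 or day 4 (0.0676 to 0.107).

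Slc25a23, like Slc25a25 a calcium-regulated ATP-magnesium and phosphate carrier, rose from 325, 298 and 310 in ES to 586, 849 and 787 in Sox1+ cells, with 506 at day 1, 299 in E-cad+ and 450 in E-cad- cells (log2 difference 1.20, SE 0.20, adjusted p = 0.0107; 0.0507 without ES sample 2). Slc25a10, the dicarboxylate carrier, rose from 214, 306 and 216 to 484, 474 and 487 (log2 difference 0.95, adjusted p = 0.0188). A second tested probe set of Slc25a10 differed by -0.30 and did not pass, and the mean over its probe sets ended the call (adjusted p = 0.515), as did leaving out ES sample 3 or day 4 (0.0654 and 0.0665).

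Among 18 tested carriers of sugars and polyols 1 rose and 2 fell (16.7% called, all genes 12.6%). Slc2a4 (GLUT4), the glucose transporter that insulin moves to the surface of muscle and fat cells, read 36.2, 18.4 and 29.0 in ES, 156 at day 1, 37.4 and 161 in E-cad+ and E-cad- cells, 128 in Sox1- cells, and 218, 150 and 68.1 in Sox1+ cells (log2 difference 1.78, SE 0.36, adjusted p = 0.0197). The E-cad+ cells were level with ES, and the other differentiated samples were higher, day 5 the least; the call ended without ES sample 2, ES sample 3 or day 4 (adjusted p 0.0549 to 0.0850). Slc5a1 (SGLT1), the sodium-glucose cotransporter, fell from 353, 343 and 304 to 193, 134 and 65.0 (log2 difference -1.35, adjusted p = 0.0407) with 554 at day 1; 9 of 15 alternatives ended its call, among them leaving out any 1 sample but day 3 (adjusted p 0.0531 to 0.124). Slc45a4, a proton-coupled sugar transporter family member, fell by 0.94 (adjusted p = 0.0281), with the highest values, 1731 and 2032, at day 1 and in E-cad+ cells. Its call ended without any 1 of the 6 samples (adjusted p 0.0571 to 0.0786). The other tested probe sets of Slc45a4 differed by -0.57 and -0.82 and did not pass (adjusted p = 0.325 and 0.0771).

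In the monocarboxylate class, which carries lactate, pyruvate and ketone bodies, 1 of 7 tested genes rose and none fell (14.3% called, all genes 12.6%). Slc16a4, whose substrate is less well known, read 119, 121 and 128 in ES and 215, 255 and 242 in Sox1+ cells (log2 difference 0.86, SE 0.18, adjusted p = 0.0201). The call ended without ES sample 2, ES sample 3, day 4 or day 5 (adjusted p 0.0529 to 0.0812). Slc16a1 (MCT1), the common lactate transporter, read 161, 110 and 89.2 in ES and 99.0, 98.2 and 102 in Sox1+ cells and did not pass (log2 difference -0.20, adjusted p = 0.646). Slc16a3 (MCT4), the lactate exporter of glycolytic cells, was named after its values were seen for its course: 1484, 827 and 1147 in ES, 2779 at day 1, 5028 and 3490 in E-cad+ and E-cad- cells, 4314 and 3272 in Sox1- and Sox1+ cells of day 3, 2373 at day 4 and 748 at day 5. Every sample of days 1 to 4 was over the ES range and day 5 was under it, so the comparison of pooled Sox1+ days with ES, 0.68 at an adjusted p of 0.485, does not describe it.

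The widest class, with 46 tested carriers of vitamins, lipids, peptides and organic ions, had 3 that rose and 4 that fell (15.2% called, all genes 12.6%). Slc46a1 (PCFT), the proton-coupled folate transporter, rose from 179, 142 and 138 in ES to 306, 406 and 269 in Sox1+ cells (log2 difference 1.01, SE 0.21, adjusted p = 0.0206). Slc22a17, a receptor for the siderophore-binding protein lipocalin 2, rose from 247, 381 and 384 to 634, 742 and 1126 (log2 difference 1.25, adjusted p = 0.0238), and Slc22a23, an orphan of the organic ion family expressed in brain, from 49.6, 52.9 and 60.9 to 148, 132 and 176 (log2 difference 1.25, SE 0.18, adjusted p = 0.00503). The call of Slc46a1 ended without ES sample 2, ES sample 3 or day 4 (adjusted p 0.0693 to 0.0837), and that of Slc22a17 without ES sample 1, ES sample 2, day 4 or day 5 (0.0540 to 0.0669).

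Of those that fell, Slc52a3, a riboflavin transporter, read 1318, 854 and 1026 in ES, 540 at day 1, 170 and 373 in E-cad+ and E-cad- cells, 472 in Sox1- cells, and 465, 304 and 463 in Sox1+ cells (log2 difference -1.34, SE 0.25, adjusted p = 0.0150). All 7 differentiated samples were under the ES range and the E-cad+ cells were the lowest. Slc47a1 (MATE1), an exporter of organic cations, fell from 379, 227 and 208 to 127, 39.6 and 34.7 (log2 difference -1.91, adjusted p = 0.0276). Slc27a2, a fatty acid transporter and very long chain acyl-CoA synthetase, fell from 152, 303 and 270 to 70.3, 73.2 and 72.1 (log2 difference -1.50, adjusted p = 0.00971). The vitamin C transporter gene Slc23a2 (SVCT2), named because it was called, fell by 0.83 (adjusted p = 0.0486), and 10 of 16 alternatives ended that call, among them leaving out any 1 sample (adjusted p 0.0702 to 0.153). That of Slc47a1 ended without any 1 sample but day 3 (0.0556 to 0.0997), that of Slc52a3 without day 4 (0.0551), and that of Slc27a2 without ES sample 3 and day 5 together (0.0756). The creatine transporter gene Slc6a8 did not pass (log2 difference -0.53, adjusted p = 0.351). Among 26 tested ABC transporters, the other large family of carriers, none rose and 2 fell (7.69% called, all genes 12.6%): Abcb1b by 1.49 (adjusted p = 0.0225) and Abcc4 by 1.57 (adjusted p = 0.0194).

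No neurotransmitter carrier passed among 12 tested (all genes 12.6%), and their median log2 difference from ES was 0.11. It was 0.29 in day 1, 0.24 in day 2 E-cad+, 0.31 in day 2 E-cad- and 0.32 in day 3 Sox1- cells, so the Sox1+ value was the lowest of the 5. Slc17a6 (VGLUT2), a vesicular glutamate transporter, read 897, 727 and 974 in ES, 1888 in E-cad- cells, and 905, 492 and 1060 in Sox1+ cells (log2 difference -0.14, adjusted p = 0.860). Slc18a3, the vesicular acetylcholine transporter, was high in 2 samples, at 207 in E-cad- cells and 252 in Sox1+ cells of day 3, and read 28.3 to 66.0 in the other 8. The part of the neuron markers, which were high in the E-cad- sample, in these values was not tested. None of 5 nucleotide sugar carriers passed; Slc35a4 differed by -0.32 (adjusted p = 0.553). Nor did the 2 carriers left without a class, Slc66a1 and Slc66a2, at 0.69 and -0.32.

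**Figure D3:**
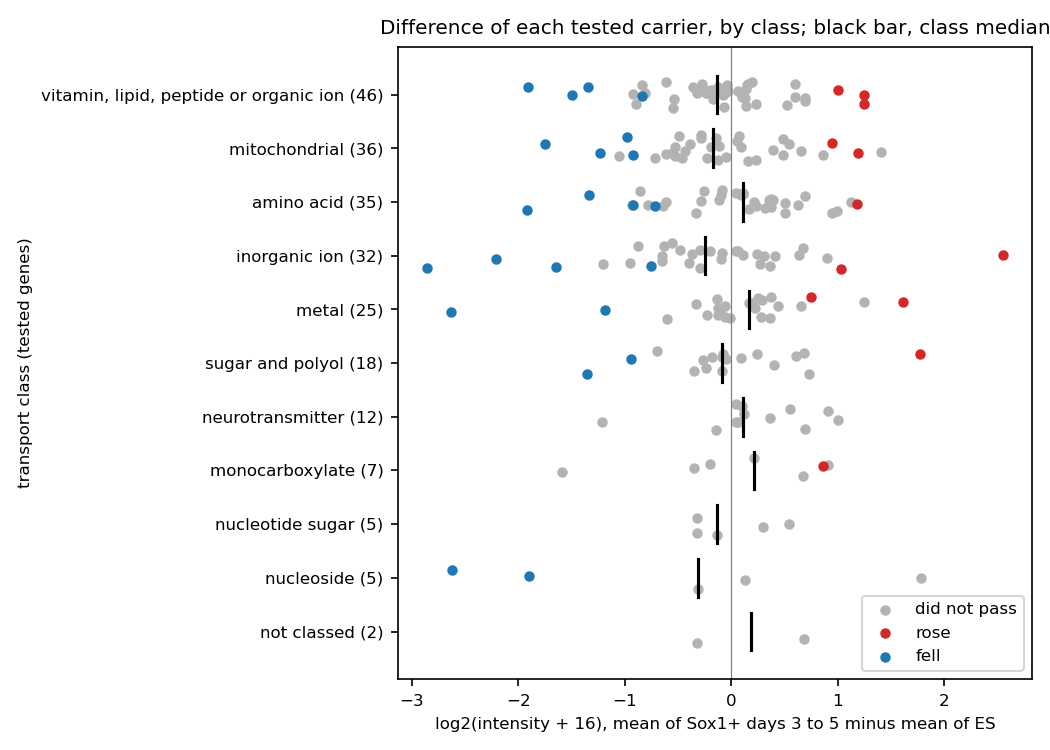
Log2 difference between the mean of Sox1+ cells (days 3 to 5) and the mean of ES cells for each of the 223 tested carriers, by transport class with the number tested; red rose, blue fell, grey did not pass, and black bars are class medians. Class medians lie between -0.31 (nucleoside) and 0.21 (monocarboxylate), and Slc4a11 and Slc8a1 mark the ends at -2.86 and 2.55.

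With 1 probe set a gene, the brightest, some probe sets that passed were not used. The tested carriers had 314 tested probe sets, of which 14 were called higher and 27 lower, and 69 carriers had more than 1. In 5 carriers the probe set used did not pass but another one did: Slc37a1, Slc39a4, Slc7a3, Slc25a12 and Slc25a44. The largest difference was in Slc37a1, which encodes a sugar-phosphate transporter of the endoplasmic reticulum. Its probe set 115002_at read 620, 545 and 638 in ES, 252 at day 1, 327 and 115 in E-cad+ and E-cad- cells, 455 in Sox1- cells, and 34.7, 36.6 and 53.7 in Sox1+ cells. It fell by 3.43 on the log2 scale (SE 0.20, adjusted p = 0.000161), further than any probe set used for a carrier, while the probe set used differed by -0.09. These genes were picked for their values, apart from Slc7a3, which the naming rule holds.

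Slc39a4 (ZIP4), the zinc importer of the intestine and of early embryonic tissue, fell by 1.62 (adjusted p = 0.00223) on probe set 97320_at, from 645, 658 and 522 to 216, 161 and 185, and by 2.17 (adjusted p = 0.0620) on 168704_f_at, but by 0.06 on the one used. Slc7a3 (CAT-3), a cationic amino acid transporter, fell by 2.57 (SE 0.40, adjusted p = 0.00669) on probe set 93133_at, which read 2124, 1549 and 1667 in ES, 1678 at day 1, 1198 and 663 in E-cad+ and E-cad- cells, 1699 in Sox1- cells, and 527, 291 and 146 in Sox1+ cells; the probe set used, 171155_i_at, differed by 0.17 (adjusted p = 0.745). The suffix r marks probe sets that Affymetrix built under relaxed rules, and i and f mark other departures from its standard probe sets. Which probe set follows the transcript was not tested. Among the 34 called carriers, 11 had other tested probe sets, 16 in all, of which 14 differed in the same direction and 2 of those passed.

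**Figure D4:**
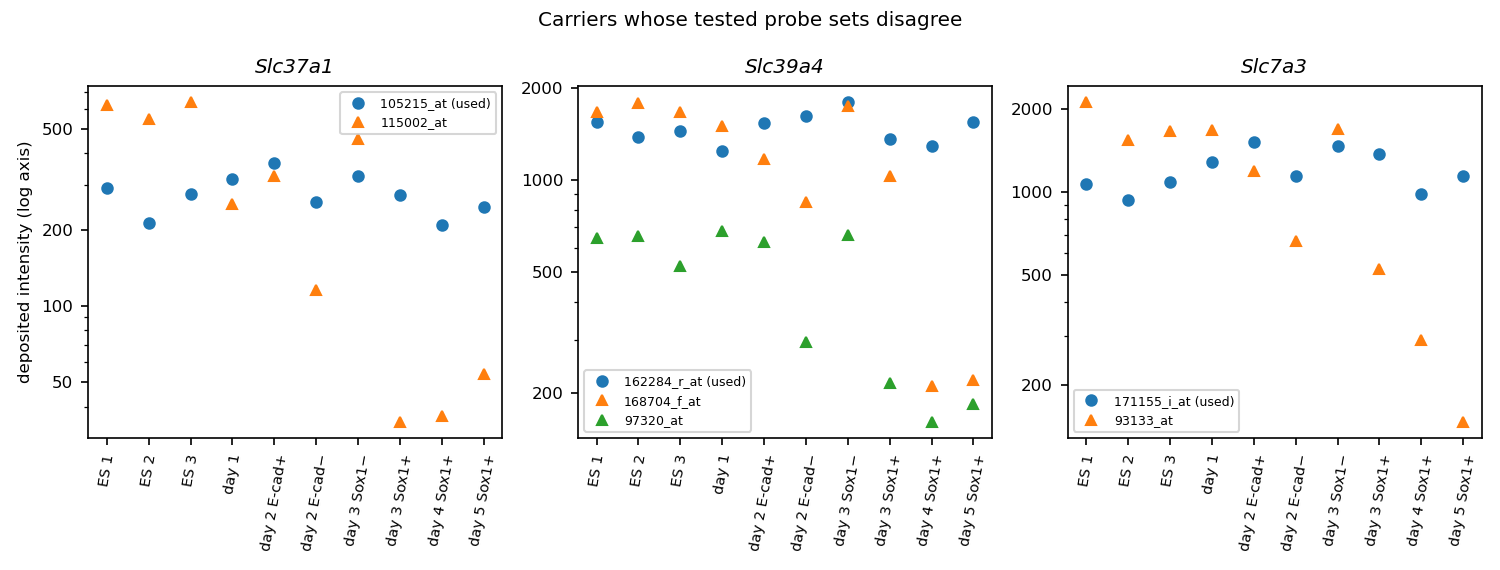
Deposited intensity (log axis) in the 10 samples of each tested probe set of Slc37a1, Slc39a4 and Slc7a3; circles are the probe set used for the gene and triangles the others. The triangles of Slc37a1 read 34.7 to 53.7 in Sox1+ cells and 545 to 638 in ES cells, and the circles stay between 208 and 368.

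In the single samples before and beside the Sox1+ gate, each against the 3 ES samples in a limma fit of 8 groups, no carrier passed an adjusted p of 0.05. With 1 sample on a side such a count says nothing of how many carriers differed. At an unadjusted p under 0.05 there were 23 carriers at day 1 (10.3%, against 6.28% of all genes), 12 in day 2 E-cad+ cells (5.38%, all genes 7.45%), 35 in day 2 E-cad- cells (15.7%, all genes 14.6%) and 17 in day 3 Sox1- cells (7.62%, all genes 6.47%). By adjusted p the E-cad- cells gave 0 carriers and 0.0232% of all genes. These 4 comparisons and that of the Sox1+ cells share the same ES samples.

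The sorts compare cells of the same day without those ES samples, with 1 sample a side and no test. At day 2, 12 carriers were at least 1 log2 unit higher in E-cad- than in E-cad+ cells (5.38%, all genes 5.86%) and 16 were lower (7.17%, all genes 4.13%), where only genes with at least 1 of their values at or over the median intensity of the chip were counted. Pairs of ES samples gave 14, 21 and 9 carriers past the same size in either direction, 6.28%, 9.42% and 4.04% of those tested, where all genes gave 5.65%, 8.19% and 3.71%. Both directions together, this sort gave 28 carriers and that of day 3 gave 27. Among the counted carriers, the largest differences higher in E-cad- cells were in Slc17a1 (2.35), Slc1a2 (2.08), Slc18a3 (1.78), Slc35a4 (1.77) and Slc4a9 (1.64). Slc8a1 (1.87), Slc30a4 (1.79) and Slc2a4 (1.73) differed as much but lay under the chip's median in both samples. Those lower were largest in Slc24a4 (-2.31), Slc16a9 (-1.94), Slc9a5 (-1.88), Slc28a1 (-1.72) and Slc6a17 (-1.68). Slc24a4, an exchanger of potassium, sodium and calcium, ranged from 151 to 424 over the ES samples alone. Slc17a1 read 242 in E-cad- and 34.5 in E-cad+ cells, and Slc35a4 read 745 and 208. Both genes were within their ES range in E-cad- cells and under it in E-cad+ cells. Slc4a9 read 310 and 88.9 in that order, against 186 to 306 in ES. Other tested probe sets read 187 and 147 in Slc35a4, 221 and 150 in Slc4a9, and 120 and 100 in Slc1a2.

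At day 3, 8 carriers were at least 1 log2 unit higher in Sox1+ than in Sox1- cells (3.59%, all genes 5.93%) and 19 were lower (8.52%, all genes 5.86%). The counted ones that were lower were led by Slc12a8 (1231 in Sox1- and 79.6 in Sox1+ cells, -3.71), Slc4a11 (780 and 67.5, -3.25), Slc28a1 (3172 and 525, -2.56), Slc25a45 (206 and 24.5, -2.46) and Slc25a41 (281 and 61.1, -1.95). The counted ones that were higher in Sox1+ cells were led by Slc18a3 (1.98), the calcium exchanger gene Slc24a3 (1.61), Slc8a1 (1.55), the glucose transporter family gene Slc2a10 (1.35) and the lysosomal amino acid exporter gene Slc66a1 (1.19). Over the ES samples alone Slc66a1 ranged from 98.1 to 337 and Slc25a41 from 74.8 to 229. The other tested probe set of Slc66a1 read 174 in Sox1- and 133 in Sox1+ cells, and that of Slc24a3 read 115 and 170. Slc8a1 also rose and Slc12a8, Slc4a11 and Slc28a1 also fell in Sox1+ cells against ES, which uses the same day 3 Sox1+ sample.

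The day 2 sort shares no sample with the comparison of Sox1+ and ES cells, so the called carriers can be read in it. All 12 that rose were higher in E-cad- than in E-cad+ cells, by 0.27 to 1.87 log2 units, with a median of 0.67. Of the 22 that fell 19 were lower, with a median of -0.55; the exceptions were Slc52a3 (1.07), Slc5a1 (0.28) and Slc25a20 (0.08). Over all genes 91.9% of those that rose were higher in E-cad- cells and 86.7% of those that fell were lower, near the carriers' shares. Of the 189 carriers that did not pass, 95 were higher and 94 lower.

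**Figure D5:**
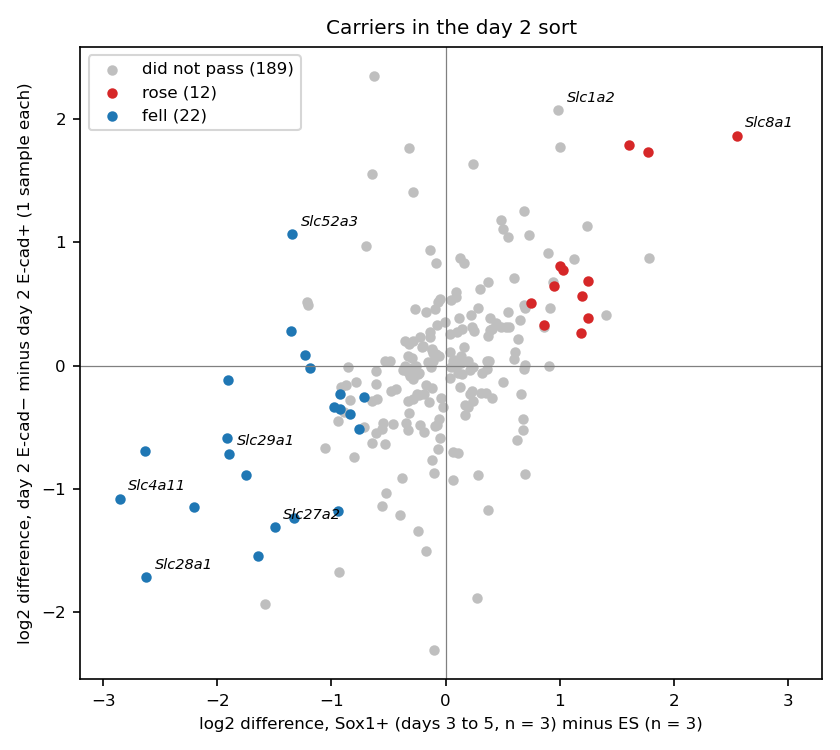
Each of the 223 tested carriers by its log2 difference between Sox1+ and ES cells (horizontal, n = 3 each) and between day 2 E-cad- and E-cad+ cells (vertical, 1 sample each); red rose, blue fell and grey did not pass in the horizontal comparison. The 12 red points lie above 0 on the vertical axis, and 19 of the 22 blue points lie below 0.

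The number of calls changed with the samples kept. A fit without 1 sample also holds fewer samples, and the part of that in the counts was not tested. Leaving out ES sample 2 left 4 carriers higher and 7 lower, leaving out ES sample 3 left 5 and 9, and leaving out ES sample 1 left 8 and 12. Without day 4 there were 3 and 7, without day 5 there were 7 and 12, and without day 3 there were 13 and 18. Called under all alternatives that gave a value were 6 carriers: Slc8a1, Slc22a23, Slc4a11, Slc29a1, Slc25a40 and Slc25a20. Their highest adjusted p over those alternatives was 0.0379, in Slc22a23. In 20 of the 34 the call ended in 5 or more of the 16 alternatives.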

How the data were processed

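Mouse Sox1-GFP ES cells and their SFEB progeny (10 samples, 8 groups) were profiled on 3 chips. Per the labels' protocols, RNA of sorted cells was reverse transcribed with an oligo-dT primer and biotin-labelled cRNA was hybridised. The authors deposited 1 linear intensity per probe set, scaled so that the 2% trimmed mean is about 500 on every array; how background was corrected, and with what software, is not given in the sources used here; no detection calls were used. The number of arrays limits the precision. Probe sets were named through GEO's platform annotation, updated by Entrez identifier to RefSeq symbols (GRCm38.p6): 29131 name 1 gene, 724 several and 6846 none, and 198 control probe sets were left out.

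Values were analysed as log2(intensity + 16), so fold changes of dim genes are understated. Probe sets over the 30th percentile of mean intensity of their chip (25690) were tested with limma 3.58.1 (R 4.3.3), lmFit and eBayes per chip, and p-values were adjusted by Benjamini-Hochberg over the 3 chips; an adjusted p under 0.05 counts as called. Where several probe sets name a gene alone, the one with the highest mean log2 signal stands for it. The spread of the Sox1+ group holds any change over days 3 to 5. The fits were tested on simulated arrays with the spread of the ES samples. There the fit of Sox1+ against ES called 37.7% of probe sets with a log2 change of 1. It called 71.4% of those with a change of 2, and 5.9% of its calls were false. The fit of day 1 against ES called 0% of either. Recovery and false calls in the real comparison, whose Sox1+ samples are of different days, were not measured.

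The members, transport classes and pathway lists were chosen with earlier results of these data known. Named were the 15 largest called each way, in each class the 2 largest called each way or, with none, the brightest gene, the 5 largest each way in each sort, and 13 carriers of general interest whatever their values; of the pathway lists, the 2 largest called each way. Alternatives were 2 other scalings, pseudocounts of 1 and 64, no filter or the 60th percentile, the mean over probe sets, a mean-variance trend, adjustment within each chip, and leaving out samples. Figures used Python 3.11.15 and matplotlib 3.10.9.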

Additional observations from a re-analysis of the deposited data

How the results depend on the processing

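With quantile normalization, scaling to the 75th percentile, a pseudocount of 1 or 64, no filter, a mean over probe sets, a mean-variance trend or adjustment within each chip, the counts of carriers higher (9 to 15) and lower (15 to 25) in Sox1+ than in ES cells stayed within 1.5 times the 12 and 22 reported. With the filter at the 60th percentile, which removes dim carriers, 6 were higher. Leaving out 1 sample gave 3 to 13 higher and 7 to 18 lower, and leaving out ES sample 3 and day 5 together, the Sox1+ and ES samples with the highest actin ratios, gave 3 and 4; these fits hold fewer samples. Against ES cells, day 2 E-cad- cells had 2 carriers called with a pseudocount of 64, 4 with the 60th percentile, 3 with the trend and 1 with adjustment within each chip. Leaving out an ES sample gave 0 to 5 there (5 without ES sample 1) and 0 to 1 in day 1 and in day 3 Sox1- cells. A log2 difference of 2 in place of 1 left 3 carriers in the day 2 sort and 4 in the day 3 sort, and the 60th percentile left 14 in the day 3 sort. Values that changed sign, none of them past the threshold before, were Slc7a3 at -1.20 (adjusted p = 0.0409) and Slc35a4 at 0.20 with the mean over probe sets, where the probe sets of a gene disagree. Leaving out 1 sample gave -0.23 to 0.02 for Slc11a2 (0.01 without ES sample 3, 0.02 without day 4, and 0.01 without ES sample 3 and day 5 together), -0.37 to 0.01 for Slc16a1 (0.01 without ES sample 1) and -0.36 to 0.18 for Slc17a6 (0.18 without day 4); the cause was not tested. The scalings moved the median of all genes by less than 0.1. No paired analysis was possible because the groups share fewer than 2 replicate numbers.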
